A study of Mus musculus with 4 samples.

Results

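Glycolysis and hypoxia response genes were followed in the CD45-negative cells of mouse lung, the fraction without the leukocyte surface marker CD45, after bleomycin injury. The genes were those on a list of 42 glycolytic enzymes, sugar and lactate carriers, pyruvate dehydrogenase kinases, hypoxia-inducible factor (HIF) subunits and HIF targets. The list was chosen with earlier results of these data known, and no gene on it was left out for its values. Of the 42 genes, 38 had a row of the array annotated to them alone, among 30142 genes tested. Gpi1, Pfkfb1, Pfkfb2 and Eno1 were not analysed here. The 4 arrays came from C57BL/6 mice, 2 given bleomycin (BLM) and 2 given phosphate-buffered saline (PBS) into the trachea, with total RNA of the CD45-negative lung cells taken 10 days later. Bleomycin breaks DNA and is used to induce lung fibrosis. The labels give no age, sex or genotype beyond the strain, and do not say whether an array holds 1 animal or a pool. No label says that arrays of 1 treatment hold separate animals. The p-values therefore cover the spread among these 4 arrays alone, and part of it may be technical.

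Glycolysis splits glucose into pyruvate and yields ATP without oxygen. Lactate dehydrogenase turns pyruvate into lactate, and pyruvate dehydrogenase kinases hold back its entry into mitochondria. When oxygen is low, HIF alpha subunits escape the prolyl hydroxylases that mark them for destruction, pair with the beta subunit ARNT and bind the core motif ACGTG or GCGTG near genes of glycolysis, vascular tone and autophagy. In lung, the alpha subunit HIF1A is known from epithelium and macrophages, and EPAS1, also called HIF2A, is abundant in endothelium. HIF is regulated mostly at the protein level, which arrays of RNA do not measure.

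The genes did not move in 1 direction. Of the 38, 11 rose, 12 fell and 15 did not pass an adjusted p of 0.05 (limma over all 30142 genes, Benjamini-Hochberg adjustment). Over all genes 25.3% passed, 15.2% higher and 10.1% lower in BLM. The members' share was 60.5%, but most of them are bright genes, which pass more often. Among genes above the median level of all genes, 6.03 on the log2 scale, 25 of 34 members (73.5%) passed in a fit on such genes, against 53.4% of all genes there. The median difference was 0.05 for the members and 0.05 for all genes, and the median absolute difference was 0.44 against 0.19. Each difference is BLM minus PBS on the log2 scale, given with its standard error (SE) and resting on 2 arrays a group, and levels are the deposited log2 values. The differences that passed ran up to 2.67 and down to -1.46. Of the 38 members 5 passed and were at least 2-fold, against 1550 of all 30142 genes (5.14%). This comparison and that of the median absolute differences were not matched for level.

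The 3 greatest rises were in hypoxia response targets outside metabolism. The deepest falls were in Pdk4 and Ldhb, which belong to pyruvate handling. Among glycolytic enzymes, Pgam1, Tpi1, Pgk1 and Pfkm rose and Hk2 fell, and the regulatory enzyme Pfkfb4 fell too. Hif1a rose, while Epas1 and Arnt fell. All 23 calls kept their direction and stayed past the threshold after median centring and after cyclic loess scaling of the arrays. Loess, however, brought the share of higher calls over all genes to 49.6%, against 60.1%. Not every call held when an array was left out. Those of Pfkm, Pgk1, Hif1a, Epas1 and Arnt each ended in at least 1 such fit, and Pgk1 did not pass on its other row. RNA of mixed cells was measured, so fewer cells of a type and less RNA per cell cannot be told apart in any result here.

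**Figure D1:**
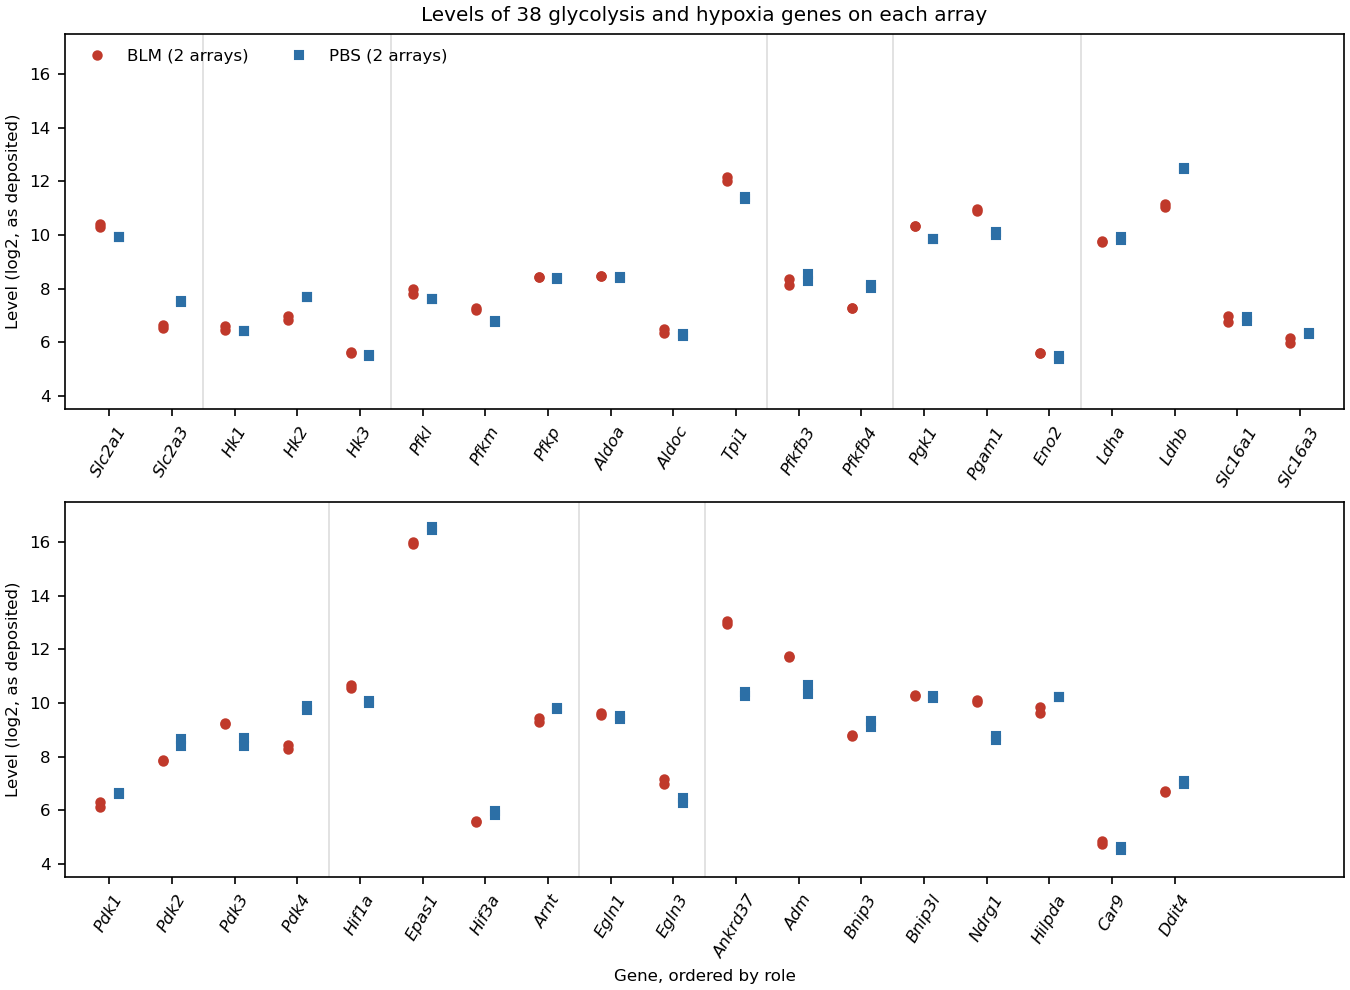
Level of each of the 38 genes on each array (log2, as deposited), ordered by role, with grey lines between roles, red circles for the 2 BLM arrays and blue squares for the 2 PBS arrays. Ankrd37 shows the widest gap, 13.04 and 12.95 in BLM against 10.25 and 10.40 in PBS, and heights of different genes are not comparable.

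Several features of the arrays run along the same line as the treatment and bear on every comparison. Xist, the noncoding RNA of X inactivation in female cells, stood at 5.60 and 5.43 on the BLM arrays and at 15.86 and 15.61 on the PBS arrays. Of the genes on the Y chromosome, Eif2s3y rose by 2.63, Uty by 2.44 and Kdm5d by 2.14. Each difference between treatments is thus also one between Xist-low and Xist-high arrays, and these cannot be told apart. With X-linked and Y-linked genes left out, 21 of 36 members passed, 9 higher and 12 lower. Over all 28244 genes of that fit 7444 passed, 4434 higher and 3010 lower. Markers of cell types moved as well. All 6 measured ciliated genes fell, as did 8 of 9 alveolar type 2 genes and 4 of 5 club cell genes, while 5 of 6 fibroblast genes and 3 of 7 endothelial genes rose. The mean log2 levels of these lists on the 2 arrays of each group were 8.20 and 8.33 in BLM against 10.21 and 10.25 in PBS for ciliated cells, 15.20 and 15.11 against 16.19 and 16.16 for alveolar type 2 cells, and 14.22 and 14.20 against 15.09 and 15.19 for club cells. For fibroblasts they were 12.90 and 12.84 in BLM against 10.60 and 10.67 in PBS, and for endothelium 12.68 and 12.47 against 12.09 and 12.25. Markers that a CD45-negative fraction should lack were higher in BLM. Ptprc, the CD45 gene itself, stood at 7.19 and 7.20 against 6.30 and 6.21 in PBS, 4 of 7 leukocyte genes rose, and 9 of 12 macrophage genes rose while 2 fell. The macrophage list averaged 9.25 and 9.33 in BLM against 7.71 and 7.69 in PBS. Its summed level, on a log2 scale, was 18.26 and 18.21 in BLM against 19.42 and 19.28 in PBS, a sum made up mostly by Lyz2, which alveolar type 2 cells also express and which stood at 18.23 and 18.18 in BLM against 19.42 and 19.28 in PBS. Of 7 neutrophil genes 2 rose, with S100a8, Csf3r and Mmp9 below the median level of all genes on all 4 arrays. Of 5 proliferation genes none rose and Pcna fell. The part of any of these cells in the results below was not tested.

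Hypoxia response targets moved both ways, with 3 of 8 higher, 3 lower and 2 that did not pass. Ankrd37, an ankyrin repeat protein gene induced by HIF, was at 13.04 and 12.95 on the BLM arrays, against 10.25 and 10.40 on the PBS arrays. That is a rise of 2.67 (SE 0.09, adjusted p = 0.00028), or 6.36-fold, with the groups far apart relative to the gap between replicates. Ndrg1, a stress-responsive gene of growth arrest and differentiation, was at 10.04 and 10.11 in BLM, against 8.63 and 8.76 in PBS, a rise of 1.37 (SE 0.09, adjusted p = 0.000778). Adm encodes adrenomedullin, a vasodilator peptide that protects the endothelial barrier. Its levels were 11.71 and 11.76 in BLM, against 10.33 and 10.65 in PBS, so that it rose by 1.24 (SE 0.13, adjusted p = 0.00249) while the PBS arrays lay farther apart than the BLM arrays.

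The 3 targets that fell did so by less. Hilpda, a lipid droplet protein that inhibits triglyceride breakdown, was at 9.86 and 9.64 in BLM, against 10.23 and 10.24 in PBS, a difference of -0.48 (SE 0.10, adjusted p = 0.024). Bnip3, a mitophagy receptor, was at 8.80 and 8.77 in BLM, against 9.09 and 9.34 in PBS, a difference of -0.43 (SE 0.11, adjusted p = 0.0421). Ddit4, an inhibitor of mTOR signalling, was at 6.68 and 6.71 in BLM, against 7.07 and 6.99 in PBS, a difference of -0.34 (SE 0.08, adjusted p = 0.0386). Features the array names as negative controls had medians of 6.01 and 5.99 in BLM, against 6.16 and 6.21 in PBS. Their part in the difference of Ddit4 was not tested. In none of the 3 did the groups overlap, yet each call depended on single arrays. Hilpda passed only without BLM replicate 1 (adjusted p = 0.0408), against 0.0763, 0.077 and 0.115 without PBS replicate 1, PBS replicate 2 and BLM replicate 2. Bnip3 passed only without PBS replicate 1 (0.029), against 0.109, 0.141 and 0.155 without PBS replicate 2 and BLM replicates 1 and 2. Ddit4 lost its call without any 1 array (adjusted p = 0.0681 to 0.185). Bnip3l, the close relative of Bnip3, differed by 0.06 (95% interval -0.15 to 0.26, adjusted p = 0.675) and by -0.081 with cyclic loess. For Car9, a membrane carbonic anhydrase widely used as a hypoxia marker, the difference was 0.24 (adjusted p = 0.128, 95% interval 0.0048 to 0.47). Its level lay below the median of all genes.

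The HIF core motif was looked for in the promoters of the members. RefSeq windows from 250 bases before to 50 after a gene's start were available for 34 of the 38 genes, on build GRCm38.p6. Slc2a3, Epas1, Bnip3l and Ndrg1 had none. The windows below belong to the 6 called genes with the largest absolute difference that hold the motif. Ankrd37, Adm and Pgam1 rose, and Pdk4, Ldhb and Pfkfb4 fell. They lie at chr8:45999801-46000100 (minus strand) for Ankrd37, chr6:5496229-5496528 (minus) for Pdk4, chr6:142507908-142508207 (minus) for Ldhb, chr7:110627407-110627706 (plus) for Adm, chr19:41911621-41911920 (plus) for Pgam1 and chr9:108991652-108991951 (plus) for Pfkfb4. Capitals mark ACGTG or GCGTG on the printed strand, or CACGT or CACGC where the motif is on the other strand, with overlapping matches joined.
Ankrd37: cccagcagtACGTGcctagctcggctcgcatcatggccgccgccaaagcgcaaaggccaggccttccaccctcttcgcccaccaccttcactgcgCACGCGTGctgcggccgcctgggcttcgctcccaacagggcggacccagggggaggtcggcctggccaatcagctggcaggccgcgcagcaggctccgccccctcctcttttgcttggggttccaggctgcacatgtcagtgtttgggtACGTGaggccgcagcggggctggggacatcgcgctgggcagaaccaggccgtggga
Pdk4: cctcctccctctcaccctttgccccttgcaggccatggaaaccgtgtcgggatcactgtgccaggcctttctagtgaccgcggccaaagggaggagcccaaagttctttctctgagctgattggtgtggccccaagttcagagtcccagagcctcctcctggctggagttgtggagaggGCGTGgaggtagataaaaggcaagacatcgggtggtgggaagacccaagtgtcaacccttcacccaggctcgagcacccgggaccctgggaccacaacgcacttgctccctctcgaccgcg
Ldhb: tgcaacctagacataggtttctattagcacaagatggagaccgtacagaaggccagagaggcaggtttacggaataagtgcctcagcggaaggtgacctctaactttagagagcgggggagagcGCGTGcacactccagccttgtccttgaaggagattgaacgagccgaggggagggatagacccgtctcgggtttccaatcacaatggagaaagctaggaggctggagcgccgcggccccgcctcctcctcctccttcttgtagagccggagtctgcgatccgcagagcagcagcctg
Adm: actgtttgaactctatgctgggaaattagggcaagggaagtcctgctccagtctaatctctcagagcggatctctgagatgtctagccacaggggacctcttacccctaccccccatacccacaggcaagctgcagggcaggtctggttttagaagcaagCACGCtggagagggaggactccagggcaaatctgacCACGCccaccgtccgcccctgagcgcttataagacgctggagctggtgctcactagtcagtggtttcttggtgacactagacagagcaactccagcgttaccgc
Pgam1: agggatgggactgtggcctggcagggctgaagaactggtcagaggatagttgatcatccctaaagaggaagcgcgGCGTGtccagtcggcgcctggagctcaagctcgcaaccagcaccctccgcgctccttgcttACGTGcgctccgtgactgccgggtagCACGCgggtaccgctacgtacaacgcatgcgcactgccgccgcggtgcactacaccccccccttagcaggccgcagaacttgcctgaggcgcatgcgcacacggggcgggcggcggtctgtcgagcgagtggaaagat
Pfkfb4: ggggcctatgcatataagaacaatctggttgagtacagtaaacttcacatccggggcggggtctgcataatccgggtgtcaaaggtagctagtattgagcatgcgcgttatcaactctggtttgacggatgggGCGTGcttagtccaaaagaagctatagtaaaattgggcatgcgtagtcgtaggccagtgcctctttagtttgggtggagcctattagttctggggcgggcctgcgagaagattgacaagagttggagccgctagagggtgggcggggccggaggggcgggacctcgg

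The Ankrd37 window held 3 separate stretches of motif, of which the middle one, CACGCGTG, carries GCGTG on both strands, and the last lay from base -6 to base -2 of the start. Pgam1 also had 3 and Adm had 2, both on the other strand. The 3 falling genes had 1 each. These 6 were picked for the size of their difference and for holding the motif, so they cannot show how common it is. No test compared motif counts between directions. Over all members that rose and had a window, the most stretches in 1 window ran from 0 (Tpi1) to 4 (Pdk3). Over those that fell, it ran from 1 (as in Arnt) to 4 (Bnip3). Counting a gene if any of its windows held the motif, it was present in 9 of 10 genes that rose (90%), in all 10 that fell (100%) and in 13 of 14 that did not pass (92.9%). Of the members measured, 32 of 34 (94.1%) held it, against 52.1% of the 17970 tested genes with a window. Many members are on the list because they are known HIF targets, and the windows were not matched for base composition. The palindrome CACGTG, which contains ACGTG on both strands and is also the E-box of other factors, was in 7 of the 34 (20.6%), against 8.95% of tested genes. Tpi1, which rose, and Eno2, which did not pass, had no such letters in their windows. A match describes the letters in the window and not binding.

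HIF subunits changed in opposite directions. Hif1a, the alpha subunit known for driving glycolytic genes, was at 10.55 and 10.68 in BLM, against 9.99 and 10.08 in PBS, a rise of 0.58 (SE 0.09, adjusted p = 0.00981). Epas1, the alpha subunit abundant in lung endothelium, was at 16.00 and 15.91 in BLM, against 16.44 and 16.54 in PBS, a difference of -0.54 (SE 0.09, adjusted p = 0.0107). Both calls ended without BLM replicate 2 (adjusted p = 0.0599 for Hif1a and 0.0674 for Epas1) and held without each other array. Of the 7 endothelial markers, Cdh5 rose by 0.85, Kdr by 0.43 and Erg by more than either, and 4 did not pass, among them Tek at -0.25. Their part in the difference of Epas1 was not tested. Arnt, the shared beta subunit, was at 9.28 and 9.45 in BLM, against 9.79 and 9.82 in PBS, a difference of -0.44 (SE 0.09, adjusted p = 0.024). It lost its call without any 1 array (adjusted p = 0.0512 to 0.133). Hif3a, whose products include inhibitors of the other alpha subunits, differed by -0.32 (adjusted p = 0.0543), at a level below the median of all genes.

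Of the prolyl hydroxylases, which use oxygen to mark HIF alpha for degradation and are induced by HIF in turn, 1 of 2 rose. Egln3 was at 7.18 and 6.98 in BLM, against 6.28 and 6.44 in PBS, a rise of 0.72 (SE 0.11, adjusted p = 0.00853). Egln1, the main oxygen sensor in most cells, was at 9.63 and 9.56 in BLM, against 9.41 and 9.50 in PBS. The groups did not overlap, but the difference of 0.14 (95% interval -0.07 to 0.36, adjusted p = 0.298) did not pass. Groups failed to overlap for 36 of the 38 members, 21 with BLM above and 15 with BLM below, where 63.3% of all genes did so (38% with BLM above and 25.3% below), so separation of 2 arrays from 2 is common here.

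Other genes of oxygen sensing rose in 4 of 12 measured cases and fell in 1, so that 41.7% passed. Over all genes 25.3% passed, and 53.4% did so in the fit on genes above the median level. Elob and Eloc, the elongins of the von Hippel-Lindau ubiquitin ligase that destroys HIF alpha, rose by 1.12 (SE 0.11, adjusted p = 0.00224) and 0.88 (SE 0.10, adjusted p = 0.00334), and the ligase scaffold Cul2 by 0.57. Without BLM replicate 1, Cul2 no longer passed (adjusted p = 0.0548). The chaperone gene Hsp90aa1 fell, at -0.48, but did not pass without PBS replicate 1 or without either BLM array (adjusted p = 0.0605 to 0.088). The von Hippel-Lindau gene itself, Vhl, differed by 0.16 and did not pass. A list of 35 further hypoxia targets includes Pkm and Gapdh, which are counted with the other glycolytic genes as well. Of the 35, 17 rose, 7 fell and 11 did not pass, so that 68.6% passed. The largest differences were those of Lox, a collagen crosslinking oxidase, at 2.18 (SE 0.13), Plod1, a lysyl hydroxylase, at 1.85 (SE 0.13), Angptl4, a lipoprotein lipase inhibitor, at 1.69 (SE 0.09) and Stc1, a secreted glycoprotein, at 1.54 (SE 0.09). These lists were chosen with earlier results of these data known. Lox and Plod1 also act on collagen, as do Plod2, which rose by 1.36, and P4ha1 and P4ha2, which fell, at -0.49 and -0.36. The part of the fibrotic response in these differences was not tested. Vegfa, the angiogenic factor often read as a hypoxia marker, differed by 0.03 (adjusted p = 0.861).

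**Figure D2:**
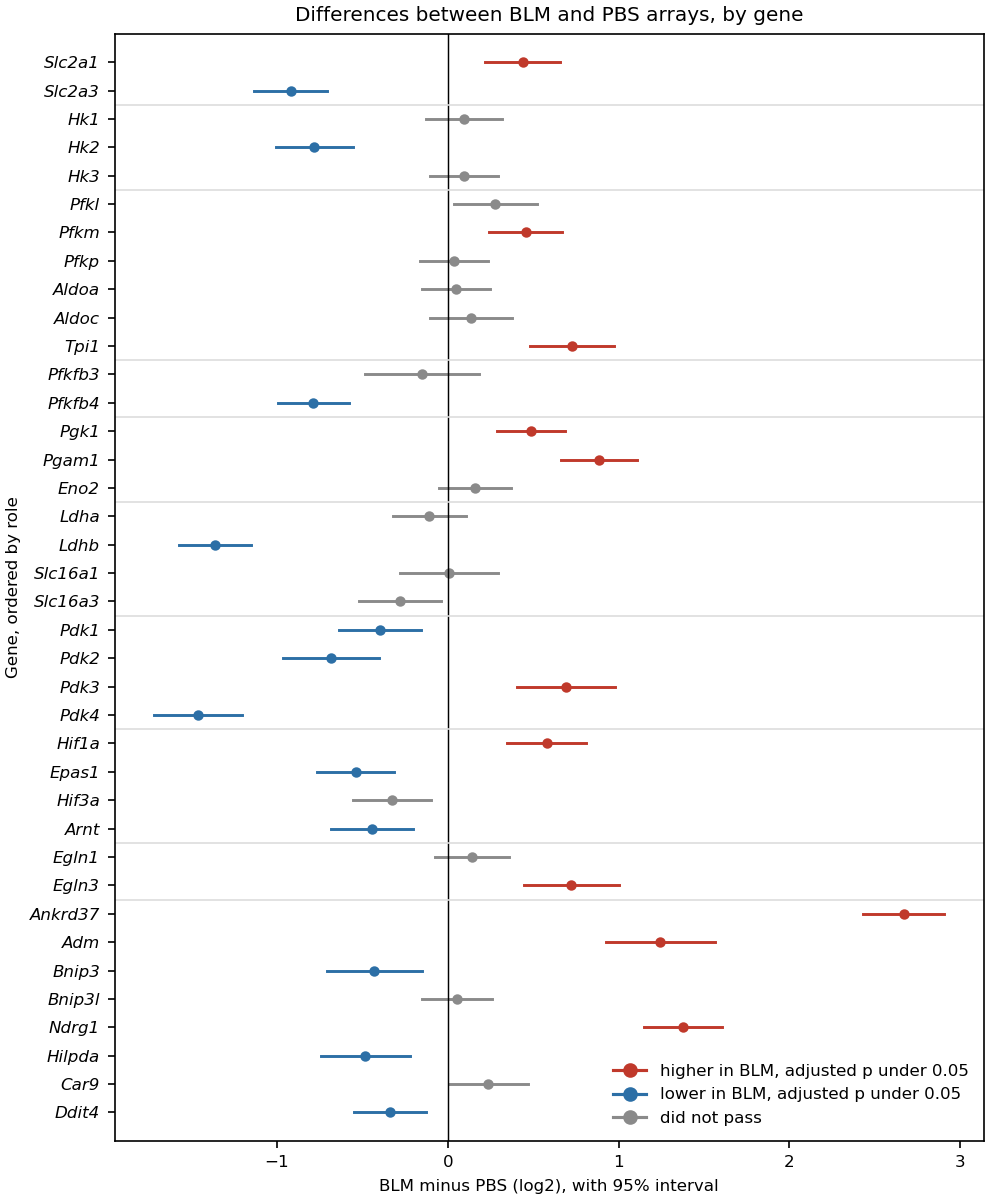
Difference of each of the 38 genes (log2, BLM minus PBS), ordered by role, with the 95% interval of the limma fit, red for genes that rose, blue for genes that fell and grey for those that did not pass. Calls of opposite direction stand within the glucose carriers, the pyruvate dehydrogenase kinases, the HIF subunits and the hypoxia targets.

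The glucose carriers parted. Slc2a1, the widespread basal carrier and a HIF target, was at 10.42 and 10.29 in BLM, against 9.92 and 9.91 in PBS, a rise of 0.44 (SE 0.09, adjusted p = 0.0197). Slc2a3, the high-affinity carrier of neurons and leukocytes, was at 6.55 and 6.66 in BLM, against 7.53 and 7.51 in PBS, a difference of -0.92 (SE 0.09, adjusted p = 0.0019). Slc2a3 passed without any 1 array, while Slc2a1 did so in none of these fits (adjusted p = 0.0571 to 0.12). Of the 7 leukocyte markers 4 rose and 3 did not pass, with Cd37 at -0.07, and their part in the difference of Slc2a3 was not tested.

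The hexokinases trap glucose in the cell by phosphorylation. Hk2, the inducible form, was at 6.84 and 6.98 in BLM, against 7.69 and 7.71 in PBS, a difference of -0.78 (SE 0.09, adjusted p = 0.00341). Hk1, the constitutive form, differed by 0.10 (95% interval -0.13 to 0.32) and Hk3, a form of myeloid cells, by 0.09 at a level below the median of all genes, and neither passed.

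In upper glycolysis 2 of 6 measured genes rose and none fell. Tpi1, triosephosphate isomerase, was at 12.18 and 12.01 in BLM, against 11.41 and 11.32 in PBS, a rise of 0.73 (SE 0.10, adjusted p = 0.00563). Pfkm, the muscle-type phosphofructokinase subunit, was at 7.29 and 7.19 in BLM, against 6.78 and 6.79 in PBS, a rise of 0.46 (SE 0.08, adjusted p = 0.0157). Pfkm lost its call without any 1 array (adjusted p = 0.0504 to 0.102). The other phosphofructokinase subunits did not pass, with Pfkl at 0.28 (adjusted p = 0.0962, or 0.045 when dim genes were filtered out) and Pfkp at 0.04 (-0.041 with cyclic loess). The aldolases Aldoa, at 0.05 (-0.029 with loess), and Aldoc, at 0.13, did not pass either.

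Pfkfb enzymes make and break the sugar bisphosphate that activates phosphofructokinase. Pfkfb4 was at 7.29 and 7.30 in BLM, against 8.04 and 8.12 in PBS, a difference of -0.79 (SE 0.08, adjusted p = 0.00261) that held without any 1 array. Pfkfb3, the form with the strongest kinase activity, was at 8.14 and 8.37 in BLM, against 8.28 and 8.53 in PBS. Its groups overlapped, and the difference of -0.15 did not pass (adjusted p = 0.473).

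Lower glycolysis was higher in BLM for 2 of 3 measured genes. Pgam1, phosphoglycerate mutase, was at 10.98 and 10.89 in BLM, against 10.00 and 10.10 in PBS, a rise of 0.88 (SE 0.09, adjusted p = 0.00237), the largest among the enzymes of the glycolytic chain measured here. Other rows of the array are annotated to Pgam1 together with its pseudogenes, so how much of this signal comes from such copies is uncertain. Pgk1, phosphoglycerate kinase, was at 10.34 and 10.34 in BLM, against 9.86 and 9.85 in PBS, a rise of 0.49 (SE 0.08, adjusted p = 0.01). That row was kept because it is the brighter of 2 annotated to Pgk1, and its identifier carries chromosome 12, whereas RefSeq places Pgk1 on the X chromosome. The row whose identifier carries X was at 9.57 and 9.65 in BLM, against 9.47 and 9.31 in PBS. Taken in place of the other, it gave a difference of 0.22 that did not pass (adjusted p = 0.17). The mean of the 2 rows rose by 0.35 (adjusted p = 0.034), and the kept row lost its call without either BLM array (adjusted p = 0.0648 and 0.0622). The neuronal enolase Eno2 differed by 0.16 (adjusted p = 0.24), at a level below the median of all genes.

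Of 13 other glycolytic genes measured, 4 rose, 2 fell and 7 did not pass, so that 46.2% passed. The share was 25.3% over all genes and 53.4% in the fit on genes above the median level. Gapdh, glyceraldehyde phosphate dehydrogenase, was at 14.55 on both BLM arrays, against 14.25 and 14.23 in PBS, a rise of 0.30 (adjusted p = 0.0434). The smallest difference called over all genes was 0.29, and whether the Gapdh call holds with an array left out was not examined. The pyruvate kinase gene Pkm rose by 0.49 (SE 0.08, adjusted p = 0.0108), a call that ended without BLM replicate 1 (adjusted p = 0.0754). Pgm2, a phosphopentomutase and phosphoglucomutase, rose by 1.21 (SE 0.13, adjusted p = 0.00296), and Bpgm, which makes bisphosphoglycerate, by 0.91 (SE 0.11). Pgm1, the phosphoglucomutase between glycogen and glycolysis, fell by 0.59 (SE 0.09) but did not pass without BLM replicate 2 (adjusted p = 0.0506).

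Ldhb and Ldha encode the subunits of lactate dehydrogenase, of which Ldhb predominates in tissues that consume lactate and Ldha in those that make it. Ldhb was at 11.06 and 11.14 in BLM, against 12.48 and 12.44 in PBS, a difference of -1.36 (SE 0.08, adjusted p = 0.000627), or 2.57-fold lower. Ldha was at 9.75 and 9.79 in BLM, against 9.92 and 9.83 in PBS, a difference of -0.11 (95% interval -0.32 to 0.11, adjusted p = 0.421). The lactate exporter Slc16a3 differed by -0.28 (adjusted p = 0.0938, or 0.0436 when dim genes were filtered out). It was at 6.15 and 5.98 in BLM, against 6.36 and 6.33 in PBS. Features the array names as negative controls had medians of 6.01 and 5.99 in BLM, against 6.16 and 6.21 in PBS. Their part in the difference of Slc16a3 was not tested. Slc16a1, which carries lactate in both directions, differed by 0.0059, and by -0.016 with median centring and -0.025 with cyclic loess.

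Further carriers included a larger change than any of these. Slc16a7, a high-affinity carrier for pyruvate and lactate uptake, was at 7.15 and 7.35 in BLM, against 9.44 and 9.66 in PBS, a difference of -2.31 (SE 0.12, adjusted p = 0.000455). Emb, embigin, an accessory protein of these carriers, fell by 0.73 (SE 0.09, adjusted p = 0.00416), and Bsg, basigin, the other such protein, differed by 0.22 and did not pass. Of 14 other carriers measured, 2 rose, 3 fell and 9 did not pass, so that 35.7% passed, against 25.3% of all genes.

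Pyruvate dehydrogenase kinases, which switch off the enzyme that feeds pyruvate into the tricarboxylic acid cycle, all passed, 3 lower and 1 higher. Pdk4, the form induced by fasting and fatty acid use, was at 8.27 and 8.44 in BLM, against 9.75 and 9.88 in PBS, a difference of -1.46 (SE 0.10, adjusted p = 0.00092), the deepest among the members. Pdk2 was at 7.83 and 7.87 in BLM, against 8.41 and 8.66 in PBS, a difference of -0.68 (SE 0.11, adjusted p = 0.0104), lost without BLM replicate 1 (adjusted p = 0.0569). Pdk1, the classic HIF target of the family, was at 6.31 and 6.14 in BLM, against 6.63 and 6.61 in PBS, a difference of -0.40 (SE 0.10, adjusted p = 0.0354) whose call ended without any 1 array (adjusted p = 0.0661 to 0.174). These levels lie close to the medians of the features the array names as negative controls, 6.01 and 5.99 in BLM against 6.16 and 6.21 in PBS, which were lower in BLM too. The part of that shift in the difference of Pdk1 was not tested. Pdk3 was at 9.24 and 9.22 in BLM, against 8.41 and 8.68 in PBS, a rise of 0.69 (SE 0.11, adjusted p = 0.0107), lost without BLM replicate 1 (adjusted p = 0.056). Pdk3 lies on the X chromosome, and the arrays where it was higher are those with little Xist.

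Of 10 genes of pyruvate entry, 2 rose, 1 fell and 7 did not pass. Pdha1, the X-linked subunit that the kinases phosphorylate, rose by 0.58 (SE 0.09, adjusted p = 0.00954) and lost its call without either BLM array (adjusted p = 0.051 and 0.0561), and the opposing phosphatase gene Pdp2 stood at -0.56, with its call lost without PBS replicate 2 (0.0531) and BLM replicate 1 (0.0751). In the tricarboxylic acid cycle 4 of 15 rose and 2 fell, none by more than 0.64. Of the 4 with the largest differences, Sdhd, Cs and Sdhb each passed in 1 of the 4 fits that leave out an array and Ogdh in none, and with cyclic loess Cs (adjusted p = 0.0962) and Sdhb (0.0534) did not pass. In the pentose phosphate pathway 2 of 6 rose and 1 fell, led by Taldo1, transaldolase, at 0.71 (SE 0.09, adjusted p = 0.00438). Of 12 genes of gluconeogenesis and glycogen, 3 rose, 2 fell and 7 did not pass. Gyg, the glycogenin that primes glycogen, was at 2.62 (SE 0.08) and Pygm, a glycogen phosphorylase, at 0.72. The synthase Gys1 and the branching enzyme Gbe1 stood at -0.69 and -0.68. The other phosphorylases, Pygl at -0.04 and Pygb at 0.04, did not pass. In all, with each gene counted once, 55 of 115 measured genes of these lists passed (47.8%), 36 higher and 19 lower, against 25.3% of all genes. Among genes above the median level 61 of 90 passed, where 53.4% of all genes did. Of the 30 genes that lead these lists by called difference, 15 held their call in all 4 fits that leave out an array, and 28 did so under loess scaling.

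**Figure D3:**
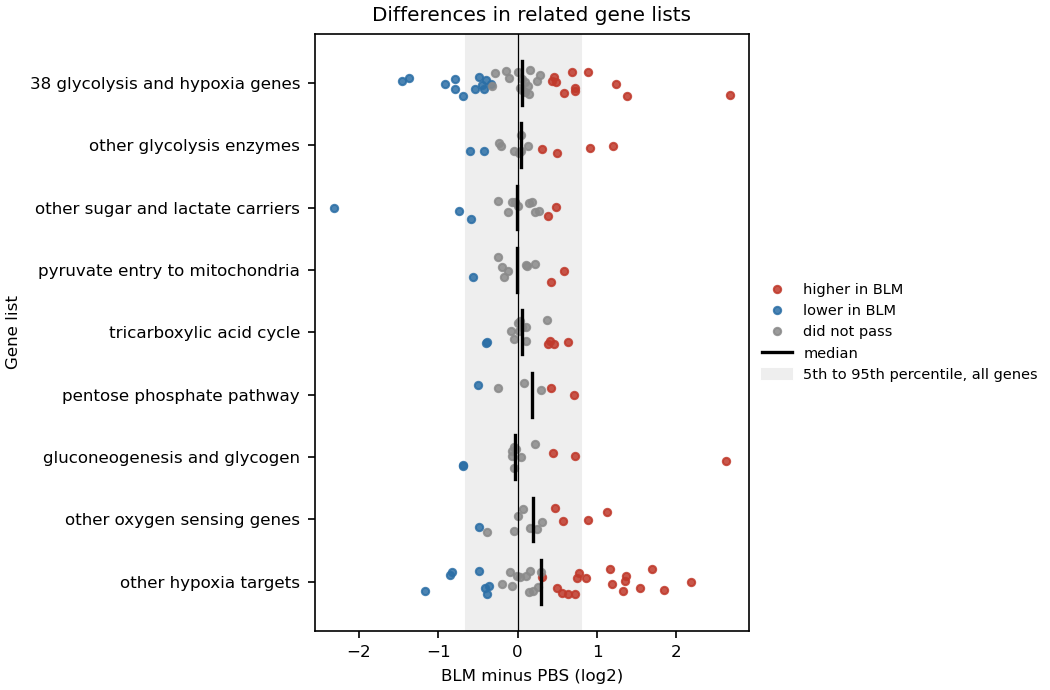
Differences (log2, BLM minus PBS) of the 38 genes and of 8 related lists, 1 point per gene, with the median of each list as a black bar and the 5th to 95th percentile of all genes, -0.65 to 0.80, in grey. Points lie on both sides of 0 in every list shown.

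The members differed in how firmly 4 arrays hold them. Replicates lay close, with a median gap of 0.09 between the BLM arrays and 0.08 between the PBS arrays, against 0.10 and 0.12 over all genes. Of the 23 calls, 11 stayed past the threshold without each array in turn. These were the rises of Ankrd37, Ndrg1, Adm, Pgam1, Tpi1 and Egln3 and the falls of Pdk4, Ldhb, Slc2a3, Pfkfb4 and Hk2, each of 0.72 or more in size. The dimmest levels among them were those of Egln3 in PBS (6.28 and 6.44) and Slc2a3 in BLM (6.55 and 6.66). Negative control medians were 6.16 and 6.21 in PBS and 6.01 and 5.99 in BLM, and the part of background signal was not tested. The other 12 lost their call in at least 1 such fit and kept their direction in all. Without BLM replicate 1, 14 members passed, and 13 did so with BLM replicate 2 left out, where a lone BLM array is assumed to vary as the PBS pair does, and 17 passed without PBS replicate 1 and 16 without PBS replicate 2.

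**Figure D4:**
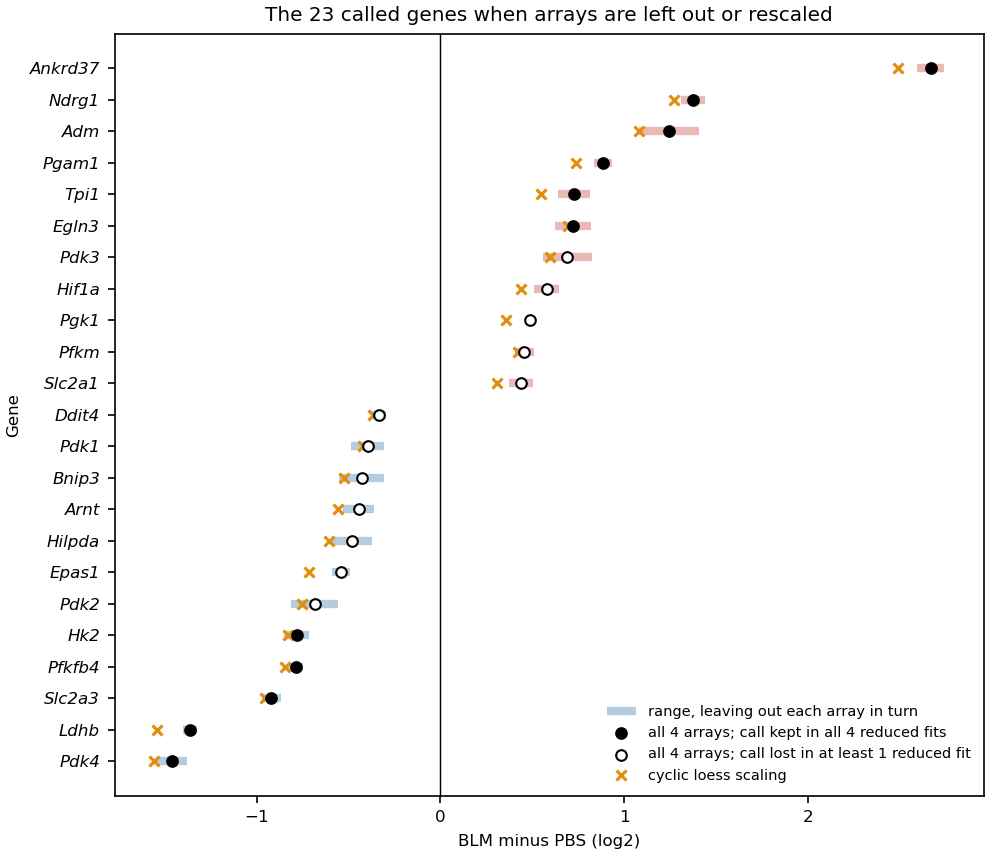
The 23 called genes, ordered by difference (log2, BLM minus PBS), with bars for the range when each array is left out, circles for all 4 arrays (filled where the call held in each reduced fit) and orange crosses for cyclic loess scaling. No bar or cross reaches 0.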

How the data were processed

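Each sample gave 1 Affymetrix array of biotin-labelled total RNA, per the labels' protocols. The log2 values deposited by the authors, 1 per transcript cluster, came from RMA and Affymetrix Expression Console according to the submitters' processing notes. Tool versions and array build: not given in the sources used here. Array medians over the genes tested were 5.99 to 6.03 and the highest values 19.56 to 19.91, higher than RMA usually gives, so whether the values were rescaled is unknown and folds hold on the deposited scale. The number of arrays limits the precision.

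Of 72688 features, 32750 were annotated, 30604 to exactly 1 symbol and 2146 to several, which were left out. Entrez identifiers updated 827 symbols. Where a gene had several rows (355 genes), the brightest by its mean was used, leaving 30142. Row identifiers carried the RefSeq chromosome in 99.7% of cases. Tests used limma 3.58.1 under R 4.3.3 (lmFit, eBayes, two-sided, 2 residual degrees of freedom), adjusted over all genes. The test was tried on simulated data. With each gene's raw spread it missed the recovery limit set for it. It met that limit after the simulation was changed to the fit's moderated spread, so the pass depends on that spread and true recovery may be weaker. The passing run had false calls close to their own limit, and a false call share above the nominal rate. It also changed a far smaller share of genes than passed in the data. Promoter windows came from RefSeq (GRCm38.p6). Members and gene lists were chosen with earlier results of these data known. All measured members are named, and of each related list up to 4 genes with the largest called difference. Gapdh, Vhl, Vegfa, Bsg, Plod2, P4ha1, P4ha2, Pygl, Pygb and the marker genes were named after their values were seen. Alternatives were the mean of a gene's rows, blocking on replicate number, dropping each array, a filter on dim genes, a trended and robust prior, median centring and cyclic loess. Leaving out X and Y genes, and keeping rows on the gene's own chromosome, were added after seeing the data.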

Additional observations from a re-analysis of the deposited data

How the results depend on the processing

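Leaving out each array in turn gave 4003 to 5956 genes past the threshold, against 7629 with all 4, with 13 to 17 members against 23 and 26 to 45 genes of the related lists against 55. The low ends came without a BLM array. Every other alternative listed kept these 3 counts within 1.5 times, and none turned the direction of a called member. Members that did not pass changed sign in a few cases near 0. Slc16a1 ran from -0.099 to 0.11 with each array left out and stood at -0.016 with median centring and -0.025 with cyclic loess. With cyclic loess, Pfkp stood at -0.041, Aldoa at -0.029 and Bnip3l at -0.081. The cause was not tested. The replicate numbers did not pair the arrays (r = 0.014 across genes between the replicate differences of BLM and PBS), and with the replicate number as a block 20 members and 6742 genes passed, without Pdk1, Bnip3 and Ddit4. With rows on the gene's own chromosome 22 members passed, without Pgk1, whose difference was then 0.22. On all 4 arrays Hk3, Eno2, Hif3a and Car9 were dimmer than the median gene, and how far background signal bears on their differences was not tested.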
